A study of Homo sapiens with 4 samples.

Results

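Circular RNA of 46 host genes that build or control the mitotic spindle was measured in radiation-resistant MDA-MB-468 cells with and without knockdown of HNRNPL. A host gene is the gene whose exons or introns a circle carries. The genes were listed by their known place in chromosome segregation, with earlier results of these data known. Every row of the count table that names a listed gene on the sense strand was taken. Of the 46 genes, 43 had at least 1 count, and together they gave 2314 of the 190152 circles counted and 30570 of 1702290 counts, or 1.80%. By their summed counts, 3 genes were at 0, 2 had fewer than 10, 8 had at least 10, 24 at least 100 and 9 at least 1000, each gene in its highest class. Host genes with at least 10 counts over the 4 libraries were tested, which kept 41 of these genes among 8388 host genes.

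MDA-MB-468 cells are a cultured line from a human breast cancer. All 4 libraries came from cells made radiation resistant by 50 Gy given in fractions, so that no unirradiated parent is in this comparison. The control libraries, shCtrl replicates 1 and 2, carried a control hairpin and the others, shHNRNPL replicates 1 and 2, carried a hairpin that stably knocks down HNRNPL, an RNA-binding protein that takes part in splicing. The labels name 1 knockdown hairpin. Circular RNA was sequenced on a nanopore instrument after random-primed reverse transcription and rolling-circle amplification of the cDNA, without molecular identifiers. Counts were taken as reads assigned to a circle; whether repeats within an amplified read were merged first is not given in the sources used here.

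A circular RNA forms when the spliceosome joins the end of an exon to the start of the same or an earlier exon, a step called back-splicing that competes with linear splicing of the same transcript. The kinetochore is the protein assembly that ties a chromosome to spindle microtubules. Its inner layer, the CCAN, sits on centromeric chromatin, its outer layer, the KMN network with the SKA complex, grips microtubules, and its corona carries motors and checkpoint proteins. Unattached kinetochores switch on the spindle assembly checkpoint, which blocks the anaphase-promoting complex until every chromosome is attached. Many of these genes are expressed most strongly in G2 and mitosis. A circle count tells how much of a host gene's circular product was read, and neither the linear mRNA nor the protein was measured here.

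The libraries held 472428 and 556578 counts in the controls against 282737 and 390547 in the knockdowns, so 3 counts, taken as the floor, corresponded to 0.539 to 1.06 counts per 100000. No circle named HNRNPL in any library, and the knockdown could not be checked from these counts. Control 1 stood apart: 70.9% of its counts were typed exon circles against 84.8% to 85.7% in the other libraries, 6.79% were antisense against 2.38% to 2.69%, and 0.943% were mitochondrial against at most 0.107%. Across host genes the 2 controls differed far more than the 2 knockdowns, with a mean chi-square per gene of 20.2 against 2.14. Of the 10 breast epithelial and MDA-MB-468 markers examined, 6 had circles, KRT8, KRT18, KRT19 and KRT17 were at 0, and their summed level was 131 and 87.3 per 100000 in the controls against 60.5 and 56.8 in the knockdowns. Fibroblast markers gave 4 counts in control 1 and 0 elsewhere, and leukocyte and endothelial markers were at 0. Whether the lower marker level or the composition of control 1 played a part in the results below was not tested.

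SKA3 was the gene of the set that rose beyond the threshold. It encodes a subunit of the SKA complex, which helps the outer kinetochore hold on to shrinking microtubule ends. Its circles were counted 85 and 150 times in the controls against 467 and 912 times in the knockdowns, or 18.0 and 27.0 against 165 and 234 per 100000. Both knockdown libraries lay far above both controls. In bulk RNA, a change in the share of cells in mitosis and a change in circles per cell cannot be told apart. On the log2 scale the fold change was 3.43 ± 0.48 (SE), and edgeR's quasi-likelihood test over all 8388 host genes gave it an adjusted p of 0.0401. This made 1 of 41 genes called higher and 0 called lower, where 0.441% of all host genes tested were called higher and 0% lower. The call was lost without either knockdown library, where a lone knockdown library remained and the log2 fold change was 3.14 to 3.71, and with edgeR's newer dispersion method, where the adjusted p was 0.0874. Leaving out control 1 raised the genes of the set called to 18, with 1654 of 6665 host genes called in all, and leaving out control 2 to 24, with 2764 of 7653. The log2 fold change of SKA3 was 3.13 without control 1 and 4.05 without control 2.

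SKA3 lies on the minus strand of chromosome 13 (chr13:21153595-21176552, GRCh38.p14, RefSeq). Of its 18 circles, 5 opened at the same exon, whose outer edge is position 21172681, and these held 1499 of the 1614 SKA3 counts. The most abundant circle (chr13:21157922-21172681) was 1016 nt long and joined 6 exons of 62, 166, 412, 86, 86 and 204 nt in transcript order. It was counted 33 and 54 times in the controls against 287 and 541 times in the knockdowns, with a log2 fold change of 3.80 ± 0.36. Its adjusted p from edgeR's quasi-likelihood test was 0.0880, and none of the 21576 circles tested had a smaller one. Several circles can share an adjusted value. A 4-exon circle of 726 nt from the same opening exon (chr13:21161790-21172681) had 30 and 60 against 114 and 256 counts, and a 3-exon circle of 640 nt (chr13:21167988-21172681) had 5 and 10 against 36 and 62. The third exon was also found as a circle of its own, 412 nt long, with 2 and 1 against 10 and 15 counts. Each of these circles was higher in both knockdown libraries than in both controls, as were 23.2% of all circles tested.

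The SKA3 circles with another opening exon, 13 in all, also had higher levels, 3.39 and 4.31 against 9.20 and 12.6 per 100000. SKA3 circles typed as intron circles were scarce and showed no such separation, at 2.12 and 3.59 in the controls against 2.12 and 3.07 in the knockdowns. The test of unequal use of SKA3 circles gave an adjusted p of 0.192 (edgeR), so a difference in response between its circles was not resolved.

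**Figure D1:**
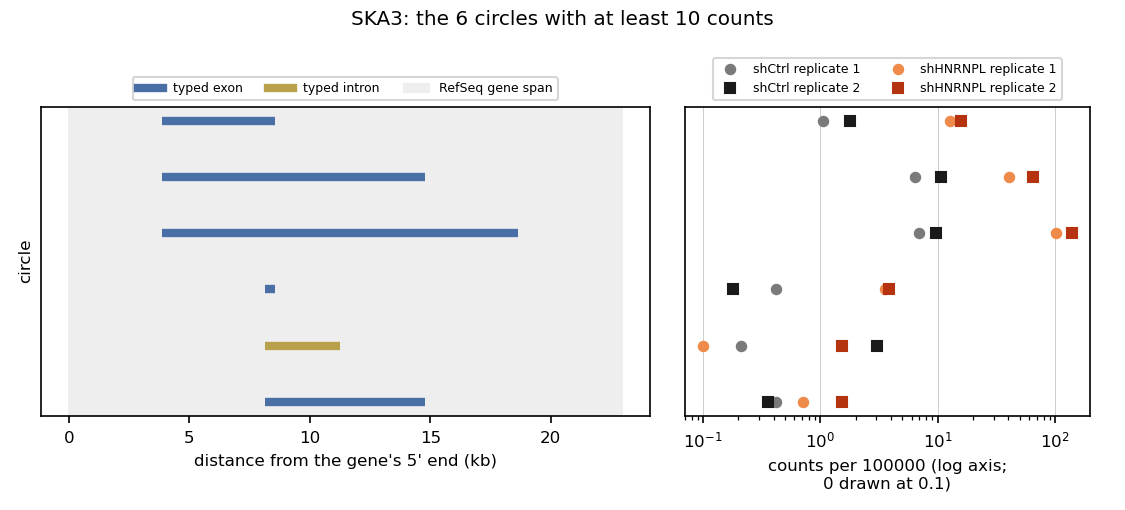
The SKA3 circles with at least 10 counts, drawn on the left as their span in kb from the 5' end of the gene (grey, RefSeq gene span; blue, typed exon; yellow, typed intron) and on the right as counts per 100000 in each library on a log axis, with 0 drawn at 0.1. In 5 of the 6 circles both knockdown libraries sit to the right of both controls, as in 23.2% of all circles tested. The 3 most abundant share their left edge.

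The other outer kinetochore genes gave smaller counts. KNL1, the scaffold that recruits BUB proteins, was at 12.1 and 30.9 against 33.6 and 26.6 per 100000, and the groups overlapped. Of the KNL1 counts 55.6% also name ENSG00000259254, and these circles were at 5.93 and 21.0 against 16.3 and 12.0 and overlapped. Circles naming KNL1 alone were at 6.14 and 9.88 against 17.3 and 14.6, a split made after the values were seen. NDC80 and NUF2, partners in the complex that contacts the microtubule, were at 8.47 and 2.16 against 7.78 and 8.71, and at 2.33 and 0.539 against 2.12 and 2.30. In both genes control 2 was the low library and control 1 lay beside the knockdowns. SPC25, the partner that links this complex to the kinetochore, had 9 counts in all and was not tested. With SKA3 the summed level of the outer kinetochore genes was 42.1 and 60.6 in the controls against 209 and 271 in the knockdowns, a ratio of 4.68 between the group means. Without SKA3 it was 24.1 and 33.6 against 44.2 and 37.9, a ratio of 1.42.

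Among the inner kinetochore genes, CENPI was the most abundant and CENPC, the protein that bridges centromeric chromatin and the outer layer, the one with the smallest p. CENPI stood at 56.7 and 75.3 against 79.9 and 84.5 per 100000, with a log2 fold change of 0.61 ± 0.38. CENPC stood at 13.3 and 9.52 against 18.8 and 14.9, with 0.87 ± 0.35. Its single most counted circle (chr4:67517952-67545473, typed intron) came from control 1 only, with 45, 0, 0 and 0 counts. Its exon circles alone were at 3.81 and 9.52 against 18.0 and 13.8. CENPK, at 6.56 and 5.21 against 3.89 and 7.17, overlapped between groups. CENPP had 5 counts and CENPQ none, which allows CENPQ at most 0.539 to 1.06 counts per 100000 by library.

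The corona genes held the most abundant kinetochore host. KNTC1 encodes the largest subunit of the RZZ complex, which with ZW10 and ZWILCH forms the corona's mesh and recruits dynein through SPDL1. Its 179 circles gave 224 and 251 against 277 and 255 per 100000, with a log2 fold change of 0.46 ± 0.41. ZWILCH was at 9.53 and 19.6 against 26.2 and 25.9, with 1.10 ± 0.45. That value was 0.64 without control 1 and 2.02 without control 2. ZW10 was at 9.31 and 12.8 against 18.8 and 12.6 and overlapped. CENPE, the kinesin that carries chromosomes to the spindle equator, was at 10.4 and 12.6 against 21.2 and 24.6, and its log2 fold change of 1.29 ± 0.36 had the smallest p after SKA3, with an adjusted p of 0.201 (edgeR). CENPF, a large coiled-coil protein of the corona, was at 50.2 and 42.2 against 35.4 and 30.5, with a log2 fold change of -0.18 ± 0.32 after TMM scaling, near the median of all host genes. SPDL1 overlapped, at 3.81 and 8.98 against 7.07 and 6.66.

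KNTC1 was the 1 gene of the set called for unequal circle use, with an adjusted p of 0.0152 in edgeR's F test over circles. That was 2.94% of the 34 genes with at least 2 circles of 10 counts, near the 3.69% of 3360 host genes called. The call did not hold under every alternative, as given below. Unadjusted p under 0.05 was reached by 7 of the 34, or 20.6%, against 17.3% of all. A 10-exon circle that lies before the main circle in the gene (chr12:122568261-122577029, 1117 nt) had 143 and 283 counts in the controls against 37 and 60 in the knockdowns, or 30.3 and 50.9 against 13.1 and 15.4 per 100000. The main circle (chr12:122594276-122624688, 21 exons, 2361 nt) stood at 65.8 and 57.9 against 81.0 and 66.3. A longer circle from the same opening exon (chr12:122594276-122671222, 23 exons, 2848 nt) ran beyond the RefSeq end of KNTC1 at 122626396 and had 17 and 27 against 52 and 50 counts, or 3.60 and 4.85 against 18.4 and 12.8.

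All 22 KNTC1 circles that ended beyond the gene's end were then summed, a grouping made after their values were seen. They stood at 34.5 and 36.8 per 100000 in the controls against 72.5 and 59.4 in the knockdowns, and 19 of them also name the unnamed gene ENSG00000274191. The 157 circles within the gene's span stood at 190 and 214 against 205 and 196 and overlapped. The call of unequal use was absent when circles naming several genes were left out, when circles typed intron were left out, without TMM scaling, by Simes' method over circles, and without either knockdown library.

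**Figure D2:**
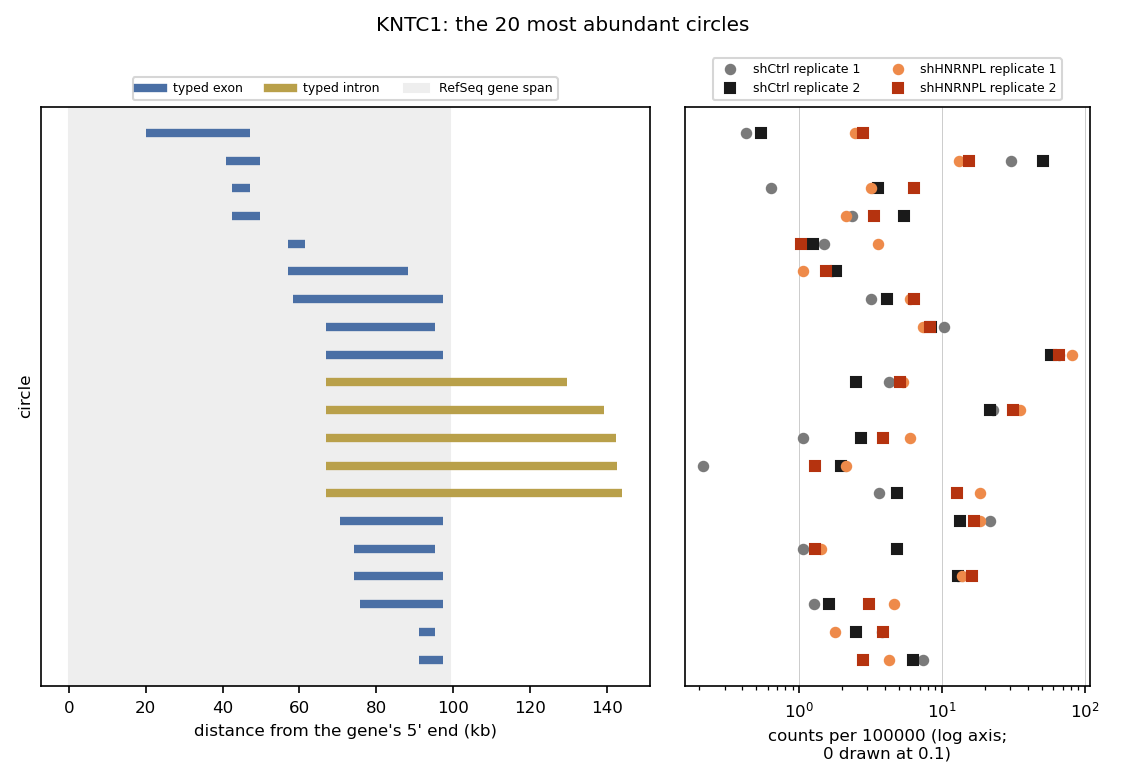
The 20 most abundant KNTC1 circles, drawn on the left as their span in kb from the 5' end of the gene (grey, RefSeq gene span; blue, typed exon; yellow, typed intron) and on the right as counts per 100000 in each library on a log axis. The yellow circles share an opening exon inside the gene and run past its end, and the second circle from the top is the one counted 143 and 283 times in the controls against 37 and 60 times in the knockdowns.

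Spindle assembly checkpoint hosts had slightly lower circle levels as a sum, at 101 and 98.1 against 85.6 and 86.3 per 100000. BUB1, a checkpoint kinase, and BUB1B, which encodes the checkpoint protein BUBR1, were at 22.4 and 19.4 against 12.0 and 13.6, and at 68.0 and 57.0 against 47.0 and 45.3. Both were lower in each knockdown library than in either control, while their log2 fold changes after TMM scaling were -0.39 ± 0.33 and -0.12 ± 0.33, close to the median of all host genes. TTK, the MPS1 kinase that starts checkpoint signalling, was at 4.45 in control 1, 20.3 in control 2 and 23.7 and 26.4 in the knockdowns. Control 2 thus lay close below the knockdowns, and the gap between the group means came mostly from control 1. BUB3, MAD1L1 and MAD2L1 had 15, 21 and 15 counts in all, and their groups overlapped. All MAD1L1 counts also name another gene.

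Anaphase-promoting complex genes differed among themselves. CDC16, the most abundant host of the set with 5021 counts, was at 326 and 389 against 185 and 203 per 100000, with a log2 fold change of -0.59 ± 0.43. CDC23, another subunit of the same arm of the complex, was at 4.45 and 5.75 against 1.42 and 1.54, with -1.48 ± 0.64. CDC27, the subunit that binds the complex's activators, had the opposite order, at 25.4 and 61.8 against 84.2 and 88.9, with 1.24 ± 0.51. That value was 0.72 without control 1 and 2.34 without control 2. Of the CDC27 counts 83.4% also name other genes, and the circles naming CDC27 alone were at 6.77 and 10.6 against 12.4 and 12.3. ANAPC4 was likewise higher, at 6.77 and 5.39 against 10.96 and 10.8, with 1.15 ± 0.39. ANAPC1, the largest subunit, was at 63.3 and 49.2 against 49.2 and 42.5, with 0.02 ± 0.33. None of these passed the threshold. ESPL1, the separase that cleaves cohesin, had 0 counts.

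Most CDC16 circles had lower or overlapping levels in the knockdowns. Of 54 with at least 10 counts, 26 were lower in both knockdown libraries, 3 were higher and 25 overlapped, where 22.9% of all circles tested were lower and 23.2% higher by this rule. The main circle (chr13:114235887-114272665, typed intron, 2205 nt) was counted 385 and 532 against 137 and 176 times. Of its shorter relatives, chr13:114235887-114250674 had 30 and 26 against 1 and 2 counts, with a log2 fold change of -3.64 ± 0.68 and an adjusted p of 0.121 (edgeR). Circles that also name the microRNA gene MIR548AR, which lies within CDC16, stood at 256 and 309 against 144 and 154, and circles naming CDC16 alone at 70.1 and 80.1 against 41.4 and 48.6.

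The mitotic kinase AURKA drives centrosome maturation and spindle assembly and is switched on by TPX2. AURKA circles were at 25.0 and 28.6 per 100000 in the controls against 10.3 and 9.73 in the knockdowns. The groups were well apart on a log2 fold change of -1.12 ± 0.35, at an adjusted p of 0.240 (edgeR). A circle of 4 exons and 663 nt (chr20:56381433-56386533) held 81.4% of AURKA counts, with 94 and 132 against 22 and 32. TPX2 was at 29.4 and 17.8 against 14.2 and 14.1, with -0.40 ± 0.35. PLK1, the other mitotic kinase listed, had no circle in any library.

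Spindle microtubule hosts split in direction while their sum hardly moved, from 346 and 351 in the controls to 347 and 337 in the knockdowns. CLASP1, a plus-end protein that keeps microtubules growing, was at 62.4 and 44.4 against 20.5 and 21.8, with a log2 fold change of -1.01 ± 0.33. Its most counted circle was a single exon of 480 nt (chr2:121605701-121606180), with 87 and 112 against 19 and 30 counts. The related CLASP2 was at 92.5 and 78.9 against 60.5 and 60.2, and CKAP5, a microtubule polymerase, at 71.1 and 52.3 against 43.5 and 42.5. NUSAP1, a microtubule-bundling protein, was at 32.4 and 22.6 against 21.2 and 16.1, and every NUSAP1 circle also names ENSG00000285920. After TMM scaling the log2 fold changes of CLASP2, CKAP5 and NUSAP1 were -0.19 ± 0.34, -0.20 ± 0.33 and -0.24 ± 0.33. Those values were close to the median of -0.26 for all host genes tested. By level, 36.7% of all host genes had both knockdowns below both controls.

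On the higher side of the same role stood DLGAP5, at 2.96 and 2.52 against 5.31 and 6.66, with a log2 fold change of 1.44 ± 0.52, or 0.71 with exon circles only. CKAP2, with 47 counts in all, was at 1.48 and 2.16 against 3.54 and 4.61. ASPM, which acts at spindle poles, was at 29.4 and 47.3 against 65.1 and 53.3, with 0.90 ± 0.41. HAUS6, a subunit of the augmin complex that branches microtubules, was at 23.9 in control 1, 83.0 in control 2 and 113 and 118 in the knockdowns, with 1.35 ± 0.61, which became 0.71 without control 1 and 2.84 without control 2. The plot of levels shows that control 1 lay far to the left of the other libraries for HAUS6, TTK, PLK4 and SASS6.

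ASPM and HAUS6 held circles with contrary or uneven values. A 7-exon ASPM circle (chr1:197117789-197125191) had 5 and 2 counts in the controls against 25 and 25 in the knockdowns, while a 17-exon circle sharing the same closing position (chr1:197117789-197146594) had 40 and 29 against 9 and 9. Their log2 fold changes were 3.32 ± 0.69 and -1.42 ± 0.56, with adjusted p of 0.139 and 0.356 (edgeR), and the test of unequal use of ASPM circles gave an adjusted p of 0.140. HAUS6 circles naming HAUS6 alone stood at 8.89 and 19.4 against 58.0 and 64.8 per 100000. Those that also name the small RNA gene SCARNA8, which lies within HAUS6, stood at 15.0 and 63.6 against 55.2 and 52.8 and overlapped. That split of HAUS6 was made after the values were seen.

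**Figure D3:**
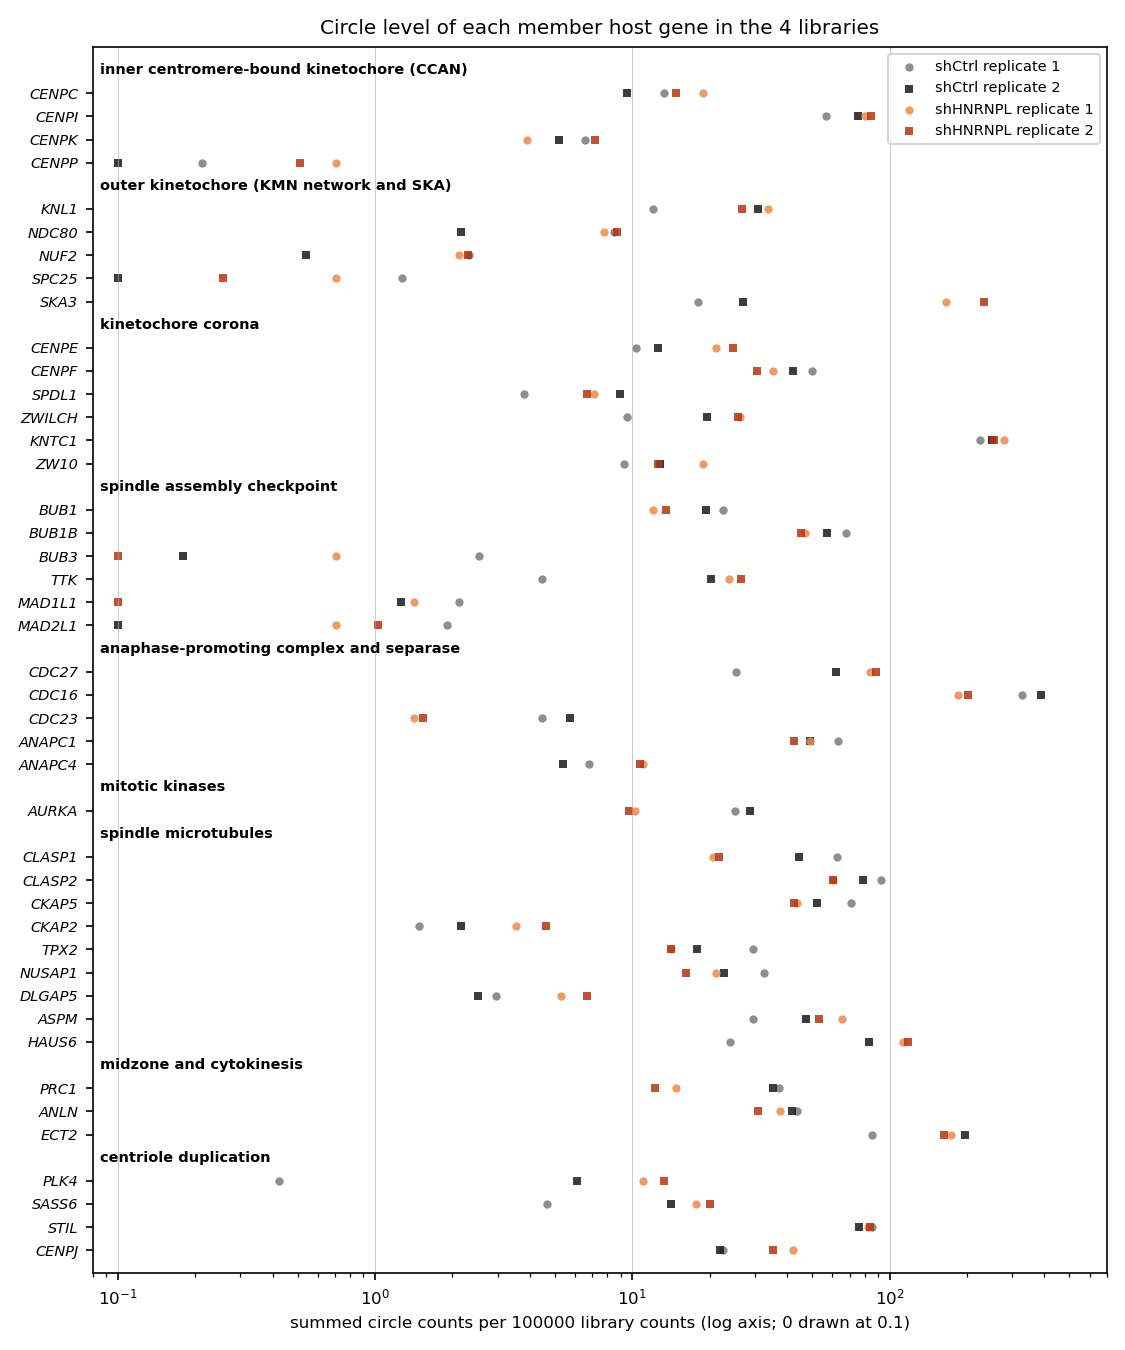
Summed circle counts per 100000 library counts of each of the 43 host genes with counts, by role, in the 4 libraries (grey and black, shCtrl; orange and red, shHNRNPL; log axis, 0 drawn at 0.1). SKA3 has the widest gap between the groups, and for several genes control 1 sits apart from control 2.

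Of the midzone and cytokinesis genes, PRC1, which bundles antiparallel microtubules between the separating chromosomes, had the smallest p of any gene with lower levels. It was at 37.3 and 35.2 against 14.9 and 12.3 per 100000, with a log2 fold change of -1.11 ± 0.33 and an adjusted p of 0.218 (edgeR). The groups did not overlap, as in 36.7% of all host genes on the lower side, and 6 of its 7 circles with at least 10 counts were lower in both knockdowns, beside 22.9% of all circles. The main PRC1 circle (chr15:90976676-90981981, 5 exons, 1401 nt) had 80 and 87 against 20 and 18 counts. Each PRC1 circle also names other genes at the locus, so these counts are shared by annotation. ANLN, the contractile ring scaffold, was at 43.8 and 41.7 against 37.5 and 30.7, with a log2 fold change of -0.02 ± 0.33 after TMM scaling. ECT2, the exchange factor that activates RhoA for furrowing, was at 85.1 and 197 against 173 and 163 and overlapped, with control 1 the low library. Its log2 fold change was 0.51 ± 0.52, which became 0.0063 without control 1 and 1.55 without control 2.

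All 4 genes of centriole duplication had counts. PLK4, the kinase that starts the process, was at 0.423 and 6.11 against 10.96 and 13.3 per 100000, with a log2 fold change of 2.09 ± 0.87. Without control 1 the PLK4 value was 1.24 and without control 2 it was 5.30, and 95.0% of PLK4 counts also name the small RNA gene RNU6-583P. SASS6, the cartwheel protein, was at 4.66 and 14.2 against 17.7 and 19.97, with 1.24 ± 0.56, which became 0.65 without control 1 and 2.59 without control 2. Circles naming SASS6 alone, with 77 counts in all, were at 1.91 and 1.44 against 7.43 and 9.99. When only circles naming 1 gene were fitted, their log2 fold change was 2.70, with an adjusted p of 0.0401 (edgeR). That fit called 89 of 5911 host genes, and the main fit gave SASS6 an adjusted p of 0.386 (edgeR). The SASS6 circles that also name ENSG00000241073, 66.4% of its counts, were at 2.75 and 12.8 against 10.3 and 9.99 and overlapped. For PLK4 and SASS6 as sums, control 1 was the lowest library, and both knockdowns were above control 2 as well. CENPJ, which adds tubulin to the growing centriole, was even within the controls, at 22.4 and 21.9 against 42.1 and 35.3, with 1.11 ± 0.33 and an adjusted p of 0.218 (edgeR). STIL, the partner of PLK4 and SASS6, was at 85.3 and 75.8 against 82.8 and 83.7 and overlapped. The summed level of the 4 genes was 113 and 118 in the controls against 153 and 152 in the knockdowns.

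The main CENPJ circle (chr13:24892643-24913091, 9 exons, 3282 nt) had 20 and 42 against 73 and 78 counts. Another circle with the same opening exon, chr13:24903926-24913091, had 26 and 28 against 15 and 25 and overlapped. A SASS6 circle of 7 exons (chr1:100106912-100122484) was read 0 times in both controls and 10 and 16 times in the knockdowns. Against the floor of 3 counts per library it was at least 6.5-fold higher. The CENPC circle chr4:67489967-67509105 with 0, 0, 8 and 9 counts and the CENPE circle chr4:103132693-103153250 with 0, 0, 5 and 7 counts had the same form at lower depth. All of these circles reached the minimum of 10 counts through the knockdown libraries alone. Circles of the reverse form were read too, such as CDC16 circles with 7, 3, 0 and 0 and with 1, 10, 0 and 0 counts.

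**Figure D4:**
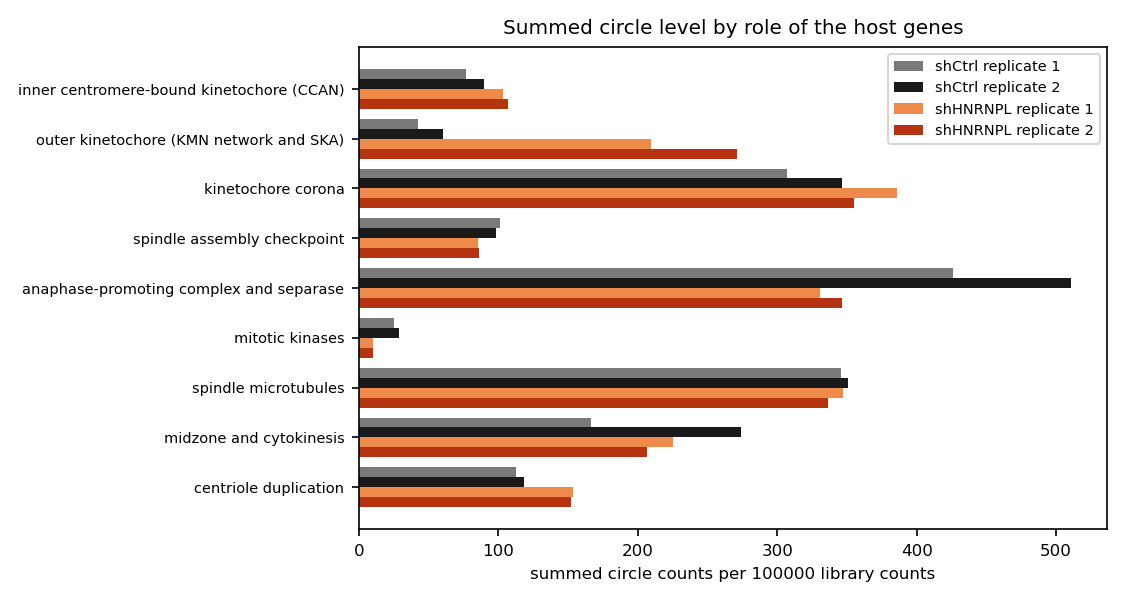
Summed circle counts per 100000 library counts by role of the host genes in each library, with bars from 0. The outer kinetochore bars are 42.1 and 60.6 in the controls against 209 and 271 in the knockdowns, of which SKA3 makes up 165 and 234, and the spindle microtubule bars are nearly level.

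Counted over the set, 16 of the 41 tested genes were higher in both knockdown libraries than in both controls and 14 were lower, or 39.0% and 34.1%. Over all host genes the shares were 15.3% higher and 36.7% lower. Unadjusted p under 0.05 was reached by 9 genes with higher and 3 with lower levels, or 22.0% and 7.32%, against 7.53% and 6.18% of all host genes. The median log2 fold change of the 41 genes was 0.46, beside -0.26 for all host genes tested. With library totals in place of TMM factors both medians were lower by about the same amount, at 0.17 and -0.58, and the number of genes with a positive value went from 26 to 23, as CENPK, MAD2L1 and ANAPC1 changed sign. The genes were chosen with earlier results of these data known, so these shares describe the set and no test was made over it.

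Of the 37 genes with at least 40 counts, 10 differed over 2-fold between the controls and 0 between the knockdowns. Of the 41 tested genes, 19 were lower in control 1 than in control 2. Among the 16 genes with both knockdowns above both controls, 12 were lower in control 1. Among the 14 genes on the lower side, 3 were. The same counts were not made over all host genes. As a whole the set's circles were level, at 1604 and 1878 per 100000 in the controls against 1851 and 1871, and without SKA3 at 1586 and 1851 against 1686 and 1638.

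**Figure D5:**
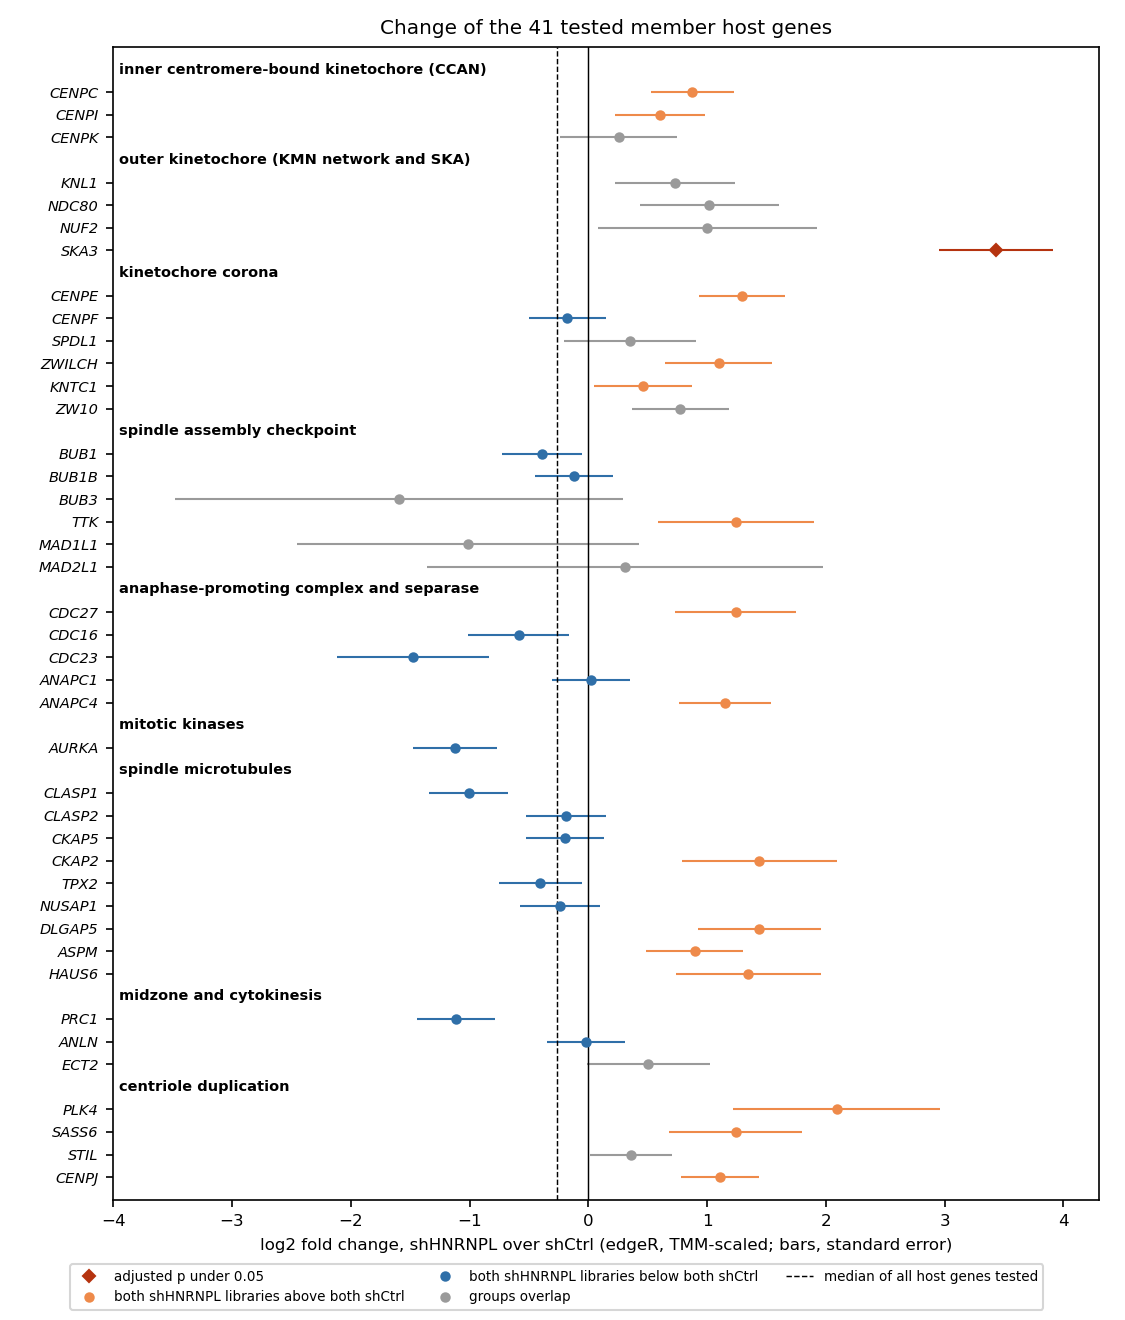
Log2 fold change of shHNRNPL over shCtrl for the 41 tested host genes by role (edgeR, TMM scaling; bars, standard error; dashed line, median of all host genes tested at -0.26). SKA3 at 3.43 is the gene past the threshold (diamond), orange marks genes with both knockdown libraries above both controls and blue those below.

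No single circle of the set passed an adjusted p under 0.05, among 387 tested, and none did among all 21576, which is 0% in either direction. Unadjusted p under 0.05 was reached by 33 circles with higher and 18 with lower levels, against 9.29% and 4.26% of all circles, the former being 8.53% and the latter 4.65% of the 387. In 95 circles both knockdowns lay above both controls and in 88 below, or 24.5% and 22.7%, near the 23.2% and 22.9% of all circles. DESeq2 called 20 of the 387 circles and 1052 of all.

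In make-up the circles of these genes were longer in exons than the table as a whole. Weighted by counts, the median number of exons was 10 against 5 for all sense circles with a gene, and single-exon circles held 4.34% of counts against 20.03%. The median length was 1407 nt against 1299 nt. The median span of the genes, 49764 nt for the 41 tested, was near the 50427 nt of the host genes with a RefSeq span. Back-splice sites with AG before and GT after the circle made up 94.2% of counts, beside 93.7% for all. Circles that name several genes held 28.6% of the set's counts, and 0 circles named more than 1 gene of the set. Antisense circles naming these genes, 88 in all and left out of every sum, stood at 26.2 and 8.27 per 100000 in the controls against 12.0 and 13.8 in the knockdowns.

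Many genes of this set share promoter elements that restrict transcription to G2 and mitosis, among them the CHR, which is bound by the MuvB complexes. RefSeq promoter windows of 250 bases before to 50 after the start (GRCh38.p14) were matched for 40 of the 46 genes. The CHR letters searched were TTTGAA or TTCGAA on either strand. At least 1 window held them in 57.5% of the 40 genes, against 19.5% of all 27305 genes with a window. The letters CCAAT, on either strand, were found in 65.0% against 39.7%. The windows of the gene with the largest rise and of the lower gene with the smallest p are shown, with the matched letters in capitals. Whether these letters act as a CHR in either gene was not tested.
SKA3 (chr13:21176503-21176802, minus strand): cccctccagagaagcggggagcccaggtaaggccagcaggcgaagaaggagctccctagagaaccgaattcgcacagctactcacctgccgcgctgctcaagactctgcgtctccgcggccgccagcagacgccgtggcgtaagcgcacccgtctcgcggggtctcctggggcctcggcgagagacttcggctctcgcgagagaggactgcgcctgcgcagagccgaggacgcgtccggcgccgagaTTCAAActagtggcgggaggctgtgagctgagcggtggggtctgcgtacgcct
PRC1 (chr15:90994486-90994785, minus strand): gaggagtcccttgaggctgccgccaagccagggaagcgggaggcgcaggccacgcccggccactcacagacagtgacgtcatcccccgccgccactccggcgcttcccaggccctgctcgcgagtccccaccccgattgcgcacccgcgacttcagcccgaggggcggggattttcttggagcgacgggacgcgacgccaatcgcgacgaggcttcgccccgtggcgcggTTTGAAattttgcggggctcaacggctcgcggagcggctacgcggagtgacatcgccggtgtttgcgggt
Of the 14 matched genes with both knockdowns above both controls, 5 held the CHR letters and 6 the letters CCAAT. Of the 12 on the lower side, 9 held the CHR letters and 9 the letters CCAAT. The same split was not made over all host genes, and a link between these letters and direction was not tested. Promoter activity was not measured here.

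A further 127 genes of mitosis outside the set were examined for context, from a list that spans kinetochore, passenger complex, anaphase-promoting complex, cohesin, condensin, kinesin, dynein, centrosome and cell-cycle kinase and cyclin genes. Counts were found for 111 and 84 were tested. Of these, 4 rose past the threshold and 0 fell, where 0.441% and 0% of all host genes did. The median log2 fold change of the 84 was 0.05, beside -0.26 for all. SGO2, which protects centromeric cohesin, was at 4.23 and 2.70 against 38.9 and 48.4 per 100000, with a log2 fold change of 3.98 ± 0.39 and an adjusted p of 0.0377 (edgeR). SMC4, the condensin core subunit, was at 10.6 and 11.7 against 58.0 and 63.8. KIF11, the kinesin that pushes spindle poles apart, was at 4.87 and 7.01 against 33.3 and 30.5. SMC4 and KIF11 had the same adjusted p of 0.0401 (edgeR) as SKA3. Among the 84, 23 had both knockdowns above both controls and 30 below, or 27.4% and 35.7%, beside 15.3% and 36.7% of all host genes.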

How the data were processed

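The authors deposited 1 table of raw read counts per circle for the 4 nanopore libraries, with each circle's position, type, exons and host genes; the submitters' processing notes name the genome build GRCh38.p14 and DESeq2, and a column of the table names CIRI-long as the circle caller. Columns were matched to libraries by name. Counts of circles naming a gene were summed per host gene, leaving out antisense circles, and a circle naming several genes was counted under each. Levels are counts per 100000 of a library's total count. Host genes and circles with at least 10 counts were tested with edgeR 4.0.16's quasi-likelihood test (R 4.3.3) with TMM factors, group as the only term and Benjamini-Hochberg adjustment over all features tested. Unequal use of circles within a gene was tested with edgeR's diffSpliceDGE. The threshold was an adjusted p of 0.05. The 3 fits were tested on simulated data.

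The genes, lists and named-gene rule were chosen with earlier results of these data known. Values are given in full for genes past the threshold, for up to 10 genes on either side with the smallest p and groups that do not overlap, and for the most abundant gene of each role; other genes are named to account for the whole set. Circles were named as the most abundant of a named gene, where it had at least 10 counts, or by the smallest p; others were chosen after their values were seen. With 2 libraries a group, called biological replicates by the submitters, an exact permutation test of 1 value cannot give a p below 0.333. Reads carry no molecular identifiers, so the floor covers counting error only. CENPJ was matched to RefSeq through its current symbol CPAP. Alternatives were library totals, DESeq2 1.42.0, other count minimums, the newer dispersion method, a replicate block, circles naming 1 gene, exon circles, and leaving out each library. Same-numbered libraries did not deviate together (correlation 0.0567 over 4775 host genes), so replicate numbers were used as names only. One item among the other mitosis genes is not reported here.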

Additional observations from a re-analysis of the deposited data

How the results depend on the processing

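SKA3 kept a positive log2 fold change under all 12 alternatives, from 3.13 to 4.05, and passed the threshold in 9, with adjusted p from 1.92e-61 to 0.919. The number of member host genes called, 1 as reported, was 2 without a filter beyond 1 count (PLK4, SKA3), 2 with circles naming 1 gene only (SASS6, SKA3), 0 with the newer dispersion method, and 0 to 24 when a library was left out; the lone library of a group is then assumed to vary like the other group. All host genes called numbered 37 as reported, 56 with library totals, 186 with DESeq2, 415 without the filter, 116 with at least 5 counts in each of 2 libraries, 0 with the newer dispersion method, where 1249 had an unadjusted p under 0.05, 89 with circles naming 1 gene, 91 with exon circles and 0 to 2764 with a library left out. Member circles called, 0 as reported, were 20 with DESeq2 (of 1052 circles called in all), 8 without the filter (of 471), 21 with at least 5 counts in each of 2 libraries (of 1422), 4 with exon circles (of 302) and 0 to 93 with a library left out (of 0 to 6421). Members with unequal circle use, 1 as reported, were 0 with library totals, 2 with at least 40 counts (ASPM, KNTC1), 5 with at least 5 counts in each of 2 libraries, 7 with the newer dispersion method (of 441 called in all), 0 with circles naming 1 gene, 0 with exon circles, 0 by Simes' method and 0 to 17 with a library left out. Other mitosis genes called, 4 as reported, were 7 with DESeq2, 11 without the filter, 0 with the newer dispersion method and 0 to 38 with a library left out. The cause of these differences was not tested.

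With the replicate block, 2 member host genes (PLK4 at an added call beside SKA3), 24 member circles, 10 members with unequal circle use and 10 other mitosis genes were called, of 306 host genes, 1620 circles and 687 uses called in all; the libraries share only a number. The median log2 fold change of the set was 0.64 with the block.

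Of 309 values of 26 named genes under alternatives, 270 kept their direction and side of the threshold, 35 passed it anew, 3 lost it and 1 turned sign: BUB1B, between -0.11 and 0.013 with a library left out, at 0.013 without control 2. A floor of 3 counts is up to 1.06 per 100000, so genes such as BUB3, MAD2L1 and SPC25 are near the limit of this depth.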
